A study of Mus musculus with 10 samples.

Results

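The genes described here are those of the mitochondrial genome, chosen as every gene of the deposited table whose name begins with mt-. They are 31 of the 29268 genes in the table, with 13 protein genes, 2 ribosomal RNA (rRNA) genes and 16 transfer RNA (tRNA) genes. The GENCODE M21 annotation of the mouse genome build GRCm38 holds 37 such genes, and the 6 not in the table are the tRNA genes mt-Td, mt-Tf, mt-Tg, mt-Tk, mt-Tm and mt-Ts1, which were not analysed here. RNA-seq was carried out on whole uterus from 5 HSD17B1TG and 5 WT females of the FVB/N strain aged 4 months, 1 library from each mouse, to ask which transcripts differ before adenomyotic changes are seen. HSD17B1TG mice carry a cDNA of human HSD17B1, the enzyme that turns estrone into estradiol, under a chicken beta actin promoter with a CMV enhancer, which is active in most tissues. Each transgenic female had a transgenic father and a WT mother. Because estrous cycles occur in the WT group alone, genotype and cycle stage cannot be told apart in these samples. The human transgene is not a gene of the mouse annotation, so its level could not be read from the table. The names TG1 to TG5 for the transgenic and WT1 to WT5 for the WT mice carry a number that serves only as a name.

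Mitochondrial DNA encodes subunits of complexes I, III, IV and V of oxidative phosphorylation, together with the rRNAs and tRNAs that translate them inside the organelle, and it is inherited from the mother. Both strands are transcribed as long precursors that are cut at the tRNAs between the genes, after which most mRNAs receive a poly(A) tail. All other subunits of the complexes, the mitochondrial ribosomal proteins and the enzymes that copy, transcribe and process this genome are encoded in the nucleus and imported.

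Fragments of mitochondrial DNA also lie in the nuclear chromosomes. A stretch of 4663 bases on chromosome 1, from 24611535 to 24616197 on the minus strand, corresponds in order and, to within 1 base, in spacing to about positions 6381 to 11043 of the mitochondrial chromosome in GRCm38. It is spanned by 7 annotated unprocessed pseudogenes, whose sequences were compared here and not the bases between them, and all 7 are genes of the table with counts of their own. The sequences below, from the GENCODE M21 transcripts, are shown because reads from such a stretch match both places. The first 3 lines give bases 445 to 504 of mt-Co2, the same bases of its copy Gm28661 on chromosome 1 (chr1:24614885-24615565), and the matching bases of an older copy, Gm13341, on chromosome 2 (chr2:22587291-22587962), with the bases at which the older copy differs from mt-Co2 in capitals.
mt-Co2: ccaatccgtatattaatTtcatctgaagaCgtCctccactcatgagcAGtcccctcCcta
Gm28661: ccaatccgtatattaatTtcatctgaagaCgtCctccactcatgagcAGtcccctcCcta
Gm13341: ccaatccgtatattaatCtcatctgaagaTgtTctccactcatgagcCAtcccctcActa
Gm28661 did not differ from mt-Co2 at any base of this window, whereas Gm13341 differed at 6. The next lines give the first 60 bases of mt-Nd3 and of its copy Gm28438 (chr1:24612775-24613119), with the base that differs in capitals.
mt-Nd3: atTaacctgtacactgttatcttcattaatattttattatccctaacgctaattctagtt
Gm28438: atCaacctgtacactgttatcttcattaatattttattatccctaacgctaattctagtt
This difference, T3C counted from the first base of mt-Nd3, was the only base that told the 345 aligned bases of the 2 genes apart. A further sequence marks where the genes of complex V run into each other on the mitochondrial chromosome, the 43 bases (MT 7927 to 7969) that belong to the end of mt-Atp8 and to the start of mt-Atp6.
mt-Atp8 and mt-Atp6: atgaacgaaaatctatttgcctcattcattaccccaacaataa

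Along the copied stretch the sequences of gene and copy were all but the same. The copies of mt-Co2 (681 aligned bases), mt-Atp6 (678), mt-Co3 (783) and mt-Nd4l (294) had an identity of 100%, and each covered its gene except for the last bases. Of mt-Nd4, 876 bases, or 63.6% of the gene, were found in Gm28439 with no mismatch. Of mt-Co1, 483 bases, or 31.3% of the gene, were found in Gm29216 with 1 mismatch, A1066T counted from the first base of mt-Co1. No copy of mt-Atp8 is annotated, but this gene too falls inside the stretch by its position. Windows of the length of a read (150 bases) that were found letter for letter in a copy on chromosome 1 made up 99.4% of the windows of mt-Co2 and of mt-Atp6, 99.8% of those of mt-Co3, 97.0% of mt-Nd3, 98.0% of mt-Nd4l, 59.2% of mt-Nd4 and 23.6% of mt-Co1. The genes mt-Nd1, mt-Nd2, mt-Nd5, mt-Nd6 and mt-Cytb and both rRNA genes held no such window. How the authors' counting treated fragments that match more than 1 place is not given in the sources used here, so counts of the genes in the stretch are uncertain.

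The level of the protein genes followed this boundary. Levels per gene length are given as FPKM (fragments scaled by gene length and by the DESeq2 size factor of the library). The 5 protein genes outside the stretch had a mean over the 10 mice between 1847 FPKM (mt-Nd5) and 6974 FPKM (mt-Cytb), and the 2 genes partly inside it had 3137 FPKM (mt-Nd4) and 8691 FPKM (mt-Co1). The 6 protein genes that lie wholly inside had between 10.3 FPKM (mt-Atp8) and 196 FPKM (mt-Co2), with mt-Atp6 at 83.3, mt-Co3 at 81.5, mt-Nd4l at 53.1 and mt-Nd3 at 25.7 FPKM. The lowest level outside was thus 9.44-fold over the highest inside, and the genes inside held 0.684% of all mitochondrial counts. Levels among the protein genes spanned 845-fold in all, but 3.78-fold among the 5 genes outside the stretch. mt-Co1 had the highest count and the highest FPKM of all genes of the table, and mt-Cytb, mt-Nd1 and mt-Nd4 were 4th, 6th and 8th by count, whereas mt-Co2 was 1491st and mt-Nd3 11375th. Whether the rows inside the stretch give the level of the mitochondrial transcripts could not be tested with these files, and their differences between mice are given with that limit.

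**Figure D1:**
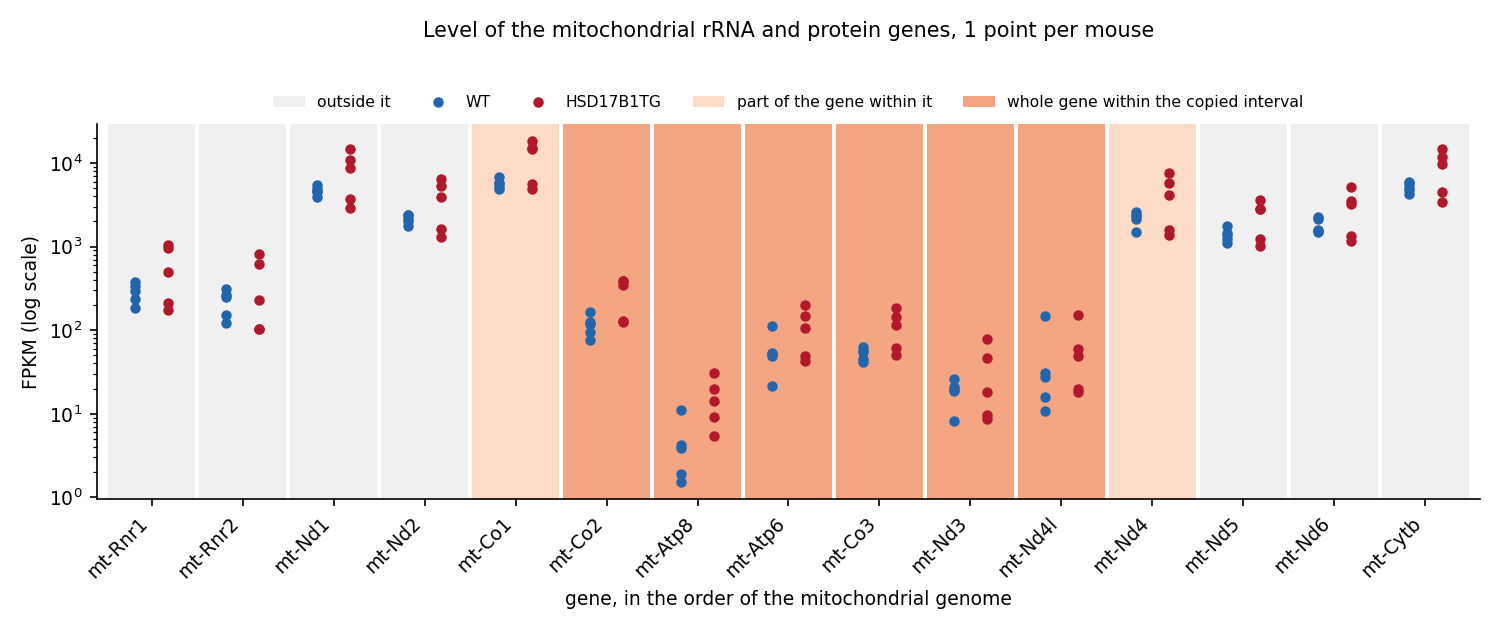
FPKM (log axis) of the 2 rRNA and 13 protein genes in the order of the mitochondrial genome, with 1 point per mouse in blue for WT and red for HSD17B1TG. Dark shading marks the 6 genes wholly within the stretch copied to chromosome 1, light shading the 2 genes partly within it and grey the genes outside, and the points of the 6 dark columns lie below all other protein genes.

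Counts of gene and copy were close to each other for most pairs inside the stretch. The ratio of the count of mt-Co2 to that of Gm28661 lay between 0.865 and 1.62 in the 10 mice, that of mt-Co3 to Gm28437 between 0.973 and 1.78, and that of mt-Nd3 to Gm28438 between 0.186 and 0.342. For mt-Atp6 and Gm10925 the ratio was 2.22 in WT2 and between 0.577 and 0.971 in the other mice. The ratio of mt-Nd4l to Gm10222 was 11.1 in WT2, 2.99 in TG4 and between 0.745 and 1.5 in the other mice, so WT2 stood apart in both pairs. Where only part of the gene is copied the ratio was far from 1, with 132 to 251.6 for mt-Nd4 and 414 to 1320 for mt-Co1. The 5 older copies with counts of their own, which match 94.8% to 97.6% of the bases of mt-Atp6, mt-Co1, mt-Co2, mt-Nd2 or mt-Nd5 over the aligned stretch, collected between 15 and 763 counts over the 10 mice. Older copies are also annotated for genes outside the stretch, among them Gm11410 with an identity of 92.9% over 99.8% of mt-Cytb and Gm11408 with 93.6% over all of mt-Nd6, and were not analysed here.

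**Figure D2:**
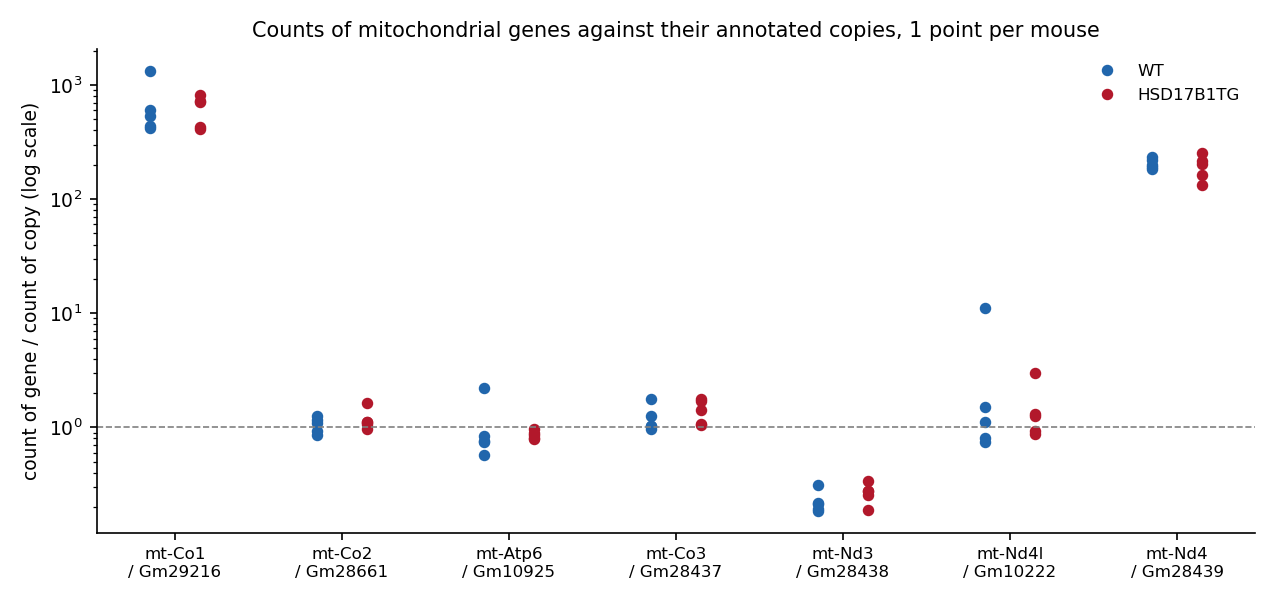
Count of each mitochondrial gene divided by the count of its annotated copy on chromosome 1 (log axis), with 1 point per mouse in blue for WT and red for HSD17B1TG and a dashed line at equal counts. The ratios of the other 5 pairs lie between 0.186 and 2.99 except for mt-Nd4l in WT2 (11.1), and those of mt-Co1 and mt-Nd4 lie at 132 or above in every mouse.

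In the uterus of HSD17B1TG mice the share of mitochondrial transcripts ranged more widely than in WT, and no single mitochondrial gene passed the threshold of the main test. Total counts on genes were 14817228 to 23271988 per mouse. The mitochondrial genes took 5.74% of them in TG1, 1.94% in TG2, 2.49% in TG3, 6.87% in TG4 and 7.57% in TG5. In WT mice they took 2.58%, 3.04%, 3.35%, 3.37% and 3.04% (WT1 to WT5). TG1, TG4 and TG5 were above every WT mouse, whereas TG2 and TG3 were below every WT mouse, so the groups overlapped. The highest share was 3.90-fold over the lowest among HSD17B1TG mice and 1.31-fold among WT mice, and the group means were 4.92% ± 2.56 (SD, n = 5) and 3.07% ± 0.322. The means differed by 1.85 percentage points, and with 1 mouse left out by 1.19 (without TG5) to 2.59 (without TG2). As sums over the whole list these shares, and their spread, were not tested.

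Of the 31 genes, 23 had enough counts for the test of all genes, the quasi-likelihood test of edgeR with Benjamini-Hochberg adjustment over 16993 genes. Of these 23, 21 had a higher and 2 a lower level in HSD17B1TG uterus by the log2 fold change, with a median of 0.78 against 0.00 over all genes tested. None had an adjusted p under 0.05, whereas 6.16% of all genes tested did. By the thresholds of the study (adjusted p under 0.05, fold change over 2 and mean FPKM over 1 in either group) 0 of 23 were called, against 4.24% of all genes. At an unadjusted p under 0.05, 4 of the 23 were counted, namely mt-Co2, mt-Co3, mt-Atp8 and mt-Co1, against 26.1% of all genes tested. This count was 13 of 24 without TG2 (21.6% of all genes tested) and 12 of 24 without TG3 (27.9%), 3 to 5 without any other single mouse, and 10 of 25 in DESeq2 (25.5%), so it lay below or above the share of all genes depending on 1 mouse or on the tool. DESeq2, the tool of the study, called the same 4 genes as higher among the 25 that it gave an adjusted p, against 4.17% of all genes called as higher, with adjusted p = 0.0141 for mt-Co2, 0.0207 for mt-Co3, 0.0290 for mt-Atp8 and 0.0404 for mt-Co1. In edgeR without TG3, mt-Co2 (adjusted p = 0.0336) and mt-Co3 (0.0421) passed the threshold, and without WT4 mt-Co2 (0.0409) did. For no gene of the 23 were the FPKM of the groups free of overlap, a state found in 6.69% of all genes tested.

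The order of the mice was much the same from gene to gene. Among the 13 protein genes TG5 was the highest mouse in 10 and TG2 the lowest in 6, and in 9 of the 13 exactly TG1, TG4 and TG5 lay above every WT mouse. For mt-Atp6 and mt-Nd3 it was TG4 and TG5, for mt-Nd4l it was TG4 alone, and for mt-Atp8 it was TG1, TG2 and TG3. The fold changes given below rest in part on TG5. Without this mouse the median log2 fold change of the 13 protein genes was 0.51 in place of 0.80, with 0.48 for mt-Nd1, 0.50 for mt-Nd2, 0.56 for mt-Nd4, 0.36 for mt-Nd6, 0.51 for mt-Cytb and 0.58 for mt-Atp6.

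mt-Co1, mt-Co2 and mt-Co3 encode the core of complex IV, cytochrome c oxidase, and had log2 fold changes between 1.03 and 1.25. mt-Co1 is the catalytic subunit and was measured at 14592, 4904, 5690, 15020 and 18234 FPKM in TG1 to TG5 and at 5177, 4903, 5858, 6779 and 5753 FPKM in WT1 to WT5. TG2 and TG3 thus lay within the range of the WT mice. The fold change was 2.05, or 1.03 on the log2 scale (SE 0.41, adjusted p = 0.144 by edgeR). mt-Co2 was at 345, 130, 126, 390 and 387 FPKM in TG1 to TG5 and at 95.6, 76.9, 125, 163 and 117 FPKM in WT1 to WT5. Again TG2 and TG3 fell among the WT mice, and only WT4 was above them. Its log2 fold change was 1.25 (SE 0.36, adjusted p = 0.0627 by edgeR), the smallest adjusted p of all 23 genes. mt-Co3 was at 116, 51.1, 62.1, 143 and 182 FPKM in TG1 to TG5 and at 45.4, 41.3, 55.9, 62.9 and 54.9 FPKM in WT1 to WT5, with a log2 fold change of 1.09 (SE 0.32, adjusted p = 0.0665 by edgeR). TG2 was within the WT mice and TG3 just below WT4. mt-Co2 and mt-Co3 are wholly inside the copied stretch, and their copies Gm28661 and Gm28437 had log2 fold changes of 1.05 (SE 0.34) and 0.97 (SE 0.45).

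mt-Atp6 and mt-Atp8 encode membrane subunits of complex V, the ATP synthase, and both lie inside the stretch. mt-Atp8 was at 31.03, 14.4, 20.1, 5.47 and 9.13 FPKM in TG1 to TG5 and at 11.2, 3.87, 1.52, 4.27 and 1.91 FPKM in WT1 to WT5. The order of the HSD17B1TG mice differed here from that of the other genes, with TG4 and TG5 lowest and below WT1. These values rest on 18 to 118 counts in HSD17B1TG and 5 to 56 counts in WT mice. The log2 fold change of 1.79 (SE 0.61, adjusted p = 0.0962 by edgeR) was the largest of the 23 genes, and 2.42 without WT1. mt-Atp6 was at 106, 42.3, 48.7, 149 and 199 FPKM in TG1 to TG5 and at 21.6, 112, 49.5, 53.04 and 51.6 FPKM in WT1 to WT5. WT2 was above TG1, and TG2 and TG3 were below all WT mice except WT1. The log2 fold change was 0.91 (SE 0.50, adjusted p = 0.273 by edgeR).

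Complex I, the NADH dehydrogenase, takes 7 subunits from this genome, and all 7 had a positive log2 fold change with a median of 0.79. mt-Nd1, in the membrane arm next to the site where ubiquinone binds, was at 8757, 2891, 3708, 10835 and 14770 FPKM in TG1 to TG5 and at 3965, 4617, 4846, 5482 and 4494 FPKM in WT1 to WT5. TG1, TG4 and TG5 were above and TG2 and TG3 below every WT mouse, with a log2 fold change of 0.80 (SE 0.43, adjusted p = 0.264 by edgeR). mt-Nd2, a proton-pumping subunit, showed the same split, with 1309 to 6438 FPKM in HSD17B1TG and 1770 to 2402 FPKM in WT mice and a log2 fold change of 0.79. mt-Nd4, a further pumping subunit, lay between 1383 and 7614 FPKM in HSD17B1TG and between 1491 and 2575 FPKM in WT mice, with a log2 fold change of 0.91. The largest pumping subunit is mt-Nd5, which stood at 2807, 1029, 1234, 2834 and 3636 FPKM in TG1 to TG5 and at 1374, 1091, 1442, 1784 and 1243 FPKM in WT1 to WT5. Only TG2 was below every WT mouse, and the log2 fold change was 0.73 (SE 0.36, adjusted p = 0.226 by edgeR).

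mt-Nd6 is the only protein gene on the other strand and overlaps the end of mt-Nd5 by 14 bases (MT 13552 to 13565), printed here on the strand of mt-Nd5 because reads of these bases cannot be told apart without the strand.
mt-Nd5 and mt-Nd6: ttaatctcgagtaa
mt-Nd6 was at 3235, 1164, 1331, 3562 and 5186 FPKM in TG1 to TG5 and at 1515, 1560, 2164, 2234 and 1564 FPKM in WT1 to WT5. The mice split as for mt-Nd1, and the log2 fold change was 0.68 (SE 0.39, adjusted p = 0.301 by edgeR). The small subunits mt-Nd3 and mt-Nd4l lie inside the copied stretch. mt-Nd3 was at 18.2, 8.75, 9.77, 46.5 and 79.4 FPKM in TG1 to TG5 and at 8.18, 25.7, 18.9, 20.04 and 21.2 FPKM in WT1 to WT5, with a log2 fold change of 0.79 (SE 0.60, adjusted p = 0.445 by edgeR) that was 0.14 without TG5 and 0.34 by limma voom. mt-Nd4l was at 48.8, 19.9, 18.1, 152 and 59.5 FPKM in TG1 to TG5 and at 10.8, 147.5, 16.1, 27.6 and 30.4 FPKM in WT1 to WT5. TG4 and WT2 were far above the other mice of their groups. Its log2 fold change of 0.35 (SE 0.79) turned to -0.35 without TG4 and was 1.47 without WT2 and 0.57 by limma voom.

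mt-Cytb encodes cytochrome b, the only subunit of complex III that this genome provides. It was at 9625, 3408, 4480, 11749 and 14869 FPKM in TG1 to TG5 and at 4219, 4762, 5602, 5935 and 5090 FPKM in WT1 to WT5. TG3 lay within the WT mice and TG2 below all of them, and the log2 fold change was 0.78 (SE 0.41, adjusted p = 0.253 by edgeR).

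**Figure D3:**
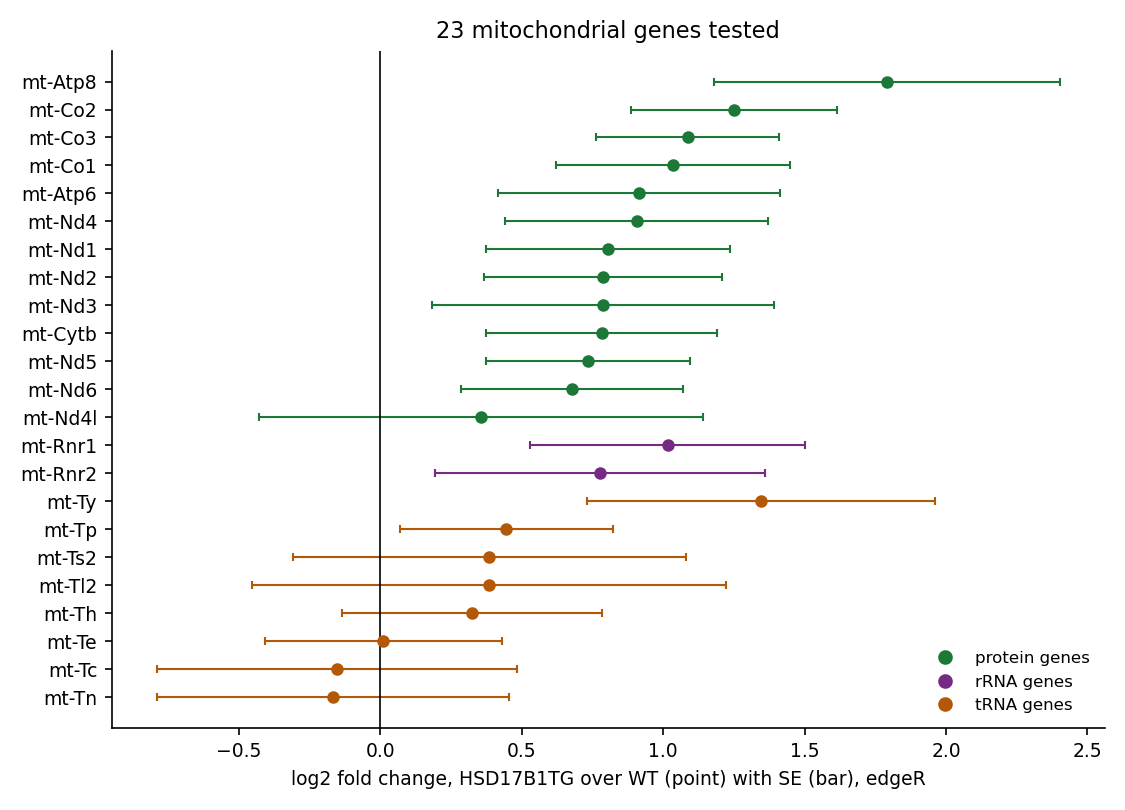
Log2 fold change of HSD17B1TG over WT from edgeR (points) with its standard error (bars) for the 23 mitochondrial genes tested, with protein genes in green, rRNA genes in purple and tRNA genes in brown. All 13 protein genes and both rRNA genes lie to the right of 0, from 0.35 to 1.79, and mt-Tc and mt-Tn lie to the left of it.

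mt-Rnr1 and mt-Rnr2 encode the rRNAs of the small and the large subunit of the mitochondrial ribosome and are neighbours at the start of the same precursor. mt-Rnr1 was at 503, 173, 213, 950 and 1056 FPKM in TG1 to TG5 and at 182, 236, 382, 337 and 291 FPKM in WT1 to WT5, with a log2 fold change of 1.02 (SE 0.49, adjusted p = 0.214 by edgeR). mt-Rnr2 was at 231, 102, 104, 817 and 627 FPKM in TG1 to TG5 and at 121, 154, 310, 266 and 246 FPKM in WT1 to WT5, with a log2 fold change of 0.78 (SE 0.58, adjusted p = 0.433 by edgeR) that was 0.27 without TG4, 0.51 without TG5 and 0.35 by limma voom. For mt-Rnr2, TG4 and TG5 were above and TG2 and TG3 below every WT mouse. The libraries were made from mRNA, so these values do not measure the rRNA content of the tissue.

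Of the 16 tRNA genes 8 had enough counts for the test, and the median log2 fold change of these 8 was 0.35. Transfer RNAs are short, folded and modified, and an mRNA library is not made to capture them. The 3 with the highest mean count, mt-Tp (proline), mt-Tc (cysteine) and mt-Tn (asparagine), are read from the strand opposite to most genes. Their sequences are shown because they hold most of the tRNA counts.
mt-Tp (MT 15356 to 15422): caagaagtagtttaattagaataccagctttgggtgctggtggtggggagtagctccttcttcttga
mt-Tc (MT 5192 to 5257): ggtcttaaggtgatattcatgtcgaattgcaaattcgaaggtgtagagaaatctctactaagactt
mt-Tn (MT 5089 to 5159): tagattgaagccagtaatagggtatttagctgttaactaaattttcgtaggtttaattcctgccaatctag
mt-Tp was at 1384, 427, 454, 1455 and 1665 FPKM in TG1 to TG5 and at 566, 772, 913, 846 and 845 FPKM in WT1 to WT5, with a log2 fold change of 0.45 (SE 0.38, adjusted p = 0.493 by edgeR) that was 0.23 without TG5 and also by limma voom. mt-Tc was at 215, 47.0, 133, 655 and 752 FPKM in TG1 to TG5 and at 367, 222, 669, 453 and 289 FPKM in WT1 to WT5, with a log2 fold change of -0.15 (SE 0.64) that was -0.72 by limma voom, -0.61 without TG5 and positive (0.04 to 0.13) without TG2, TG3 or WT3. TG5 alone was above every WT mouse and TG1, TG2 and TG3 were below every WT mouse. mt-Tn had the same order at its ends, with 51.8 to 565 FPKM in HSD17B1TG and 171 to 530 FPKM in WT mice and a log2 fold change of -0.17 (SE 0.62) that was -0.62 by limma voom or without TG5 and positive (0.04 to 0.10) without TG2, TG3 or WT3. mt-Ty (tyrosine), which is outside the rule for named genes and was chosen after its values were seen, had the second-largest log2 fold change of the 23 genes, 1.35 (SE 0.62, adjusted p = 0.195 by edgeR). It was at 25.6, 7.72, 5.55, 30.5 and 20.1 FPKM in TG1 to TG5 and at 3.04, 2.36, 13.9, 10.1 and 5.83 FPKM in WT1 to WT5, from 3 to 33 counts per mouse. TG1, TG4 and TG5 were above every WT mouse, and TG2 and TG3 among the WT mice. Genes at the lower end were mt-Tv and mt-Tr with 3 counts each and mt-Tt with 2 counts over the 10 mice, all at or under 3 counts in every mouse, and no fold change was computed for them. mt-Ta, mt-Ti, mt-Tq, mt-Tw and mt-Tl1 had 6 to 83 counts in all and were not tested either.

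In every HSD17B1TG mouse the tRNA genes made up less of the mitochondrial counts than in any WT mouse. Together they took 0.220%, 0.201%, 0.202%, 0.285% and 0.264% of the mitochondrial counts in TG1 to TG5. In WT1 to WT5 they took 0.347%, 0.330%, 0.510%, 0.392% and 0.375%. As a share of all counts the tRNA genes overlapped between the groups, with 0.00390% to 0.0200% in HSD17B1TG and 0.00893% to 0.0171% in WT mice. Of the 23 genes tested, 2 had a share of the mitochondrial counts without overlap between the groups. mt-Tp took 0.122% to 0.155% in HSD17B1TG and 0.156% to 0.199% in WT mice, and mt-Co3 took 0.152% to 0.196% in HSD17B1TG and 0.124% to 0.151% in WT mice. When the counts of all genes tested were divided by the mitochondrial count of the mouse in the same way, 2.82% had no overlap. Nearly all of these genes are nuclear, and the division adds to them the spread of the mitochondrial counts. This percentage is therefore not a like background for the mitochondrial genes. mt-Co1 took the largest share in every mouse, 34.9% ± 2.52 (SD, n = 5) in HSD17B1TG and 30.6% ± 1.498 in WT mice, and these shares overlapped. The rRNA genes took 1.41% to 3.12% in HSD17B1TG and 1.5% to 2.78% in WT mice. The strand setting of the counting is not given in the sources used here. Counts of genes on the minus strand, among them mt-Tp, mt-Tc, mt-Tn, mt-Ty and mt-Nd6, could thus include reads of the precursor of the opposite strand. The ratio of mt-Nd6 to mt-Nd5 given below has the same limit.

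**Figure D4:**
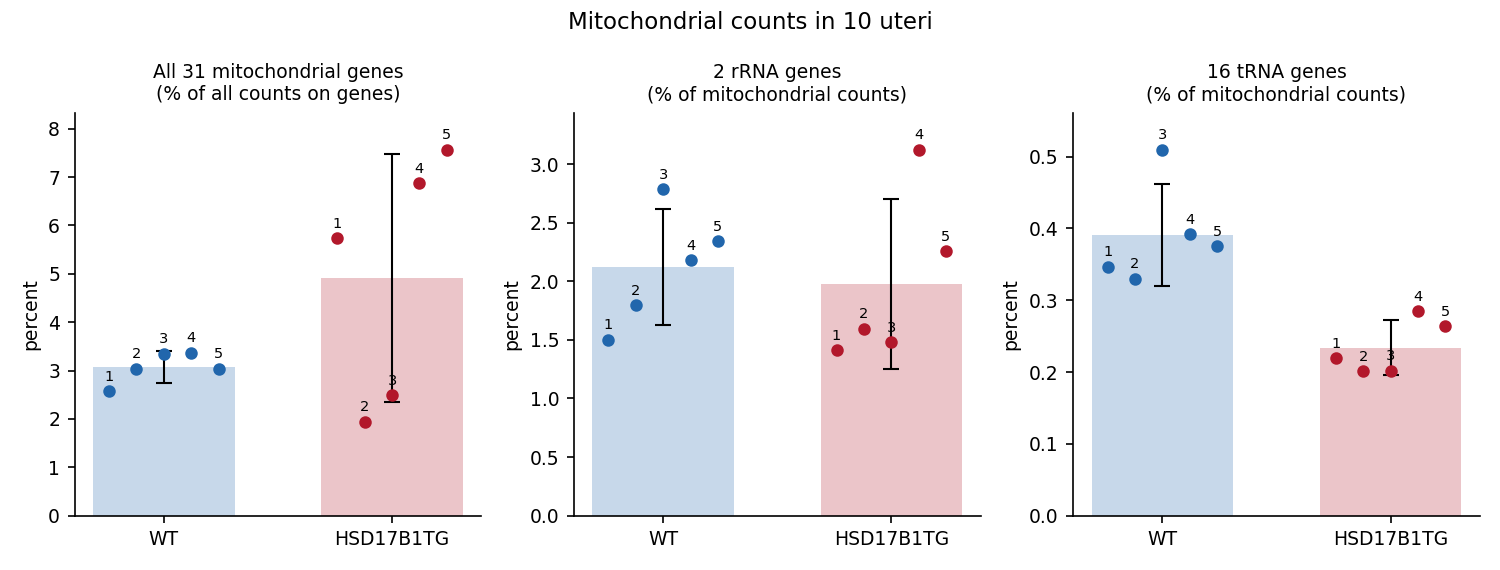
Percent of all counts on genes taken by the 31 mitochondrial genes (left), and percent of the mitochondrial counts taken by the 2 rRNA genes (middle) and the 16 tRNA genes (right), in WT (blue) and HSD17B1TG (red) uteri. Points are mice with their number, bars are group means and error bars are SD (n = 5), and only in the right panel do the groups not overlap, with the highest HSD17B1TG mouse at 0.285% and the lowest WT mouse at 0.330%.

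Ratios of genes within a library do not depend on its size. The 3 pairs of genes outside the copied stretch below were compared by exact permutation of the 10 mice (2-sided), with adjustment over the 3 ratios. The log2 ratio of the count of mt-Rnr2 to that of mt-Rnr1 was -0.39, -0.03, -0.30, 0.51 and -0.02 in TG1 to TG5 and 0.14, 0.11, 0.43, 0.39 and 0.49 in WT1 to WT5. TG1, TG2, TG3 and TG5 were below every WT mouse and TG4 was above every WT mouse. The mean difference was -0.36 (exact permutation p = 0.0635, adjusted p = 0.190), and when any other single mouse was left out the adjusted p was 0.190 to 0.381. Without TG4, the 1 HSD17B1TG mouse above the WT mice, the difference was -0.50 (adjusted p = 0.0476). For mt-Nd6 to mt-Nd5, genes of opposite strands, the mean log2 ratio was -1.55 ± 0.16 in HSD17B1TG and -1.43 ± 0.18 in WT mice (SD, n = 5, exact permutation p = 0.302, adjusted p = 0.452). For mt-Nd5 to mt-Nd1, genes far from and near to the start of the same precursor, it was -0.80 ± 0.23 and -0.84 ± 0.21 (SD, n = 5, exact permutation p = 0.817, adjusted p = 0.817). Neither of these 2 differences was larger than the spread between the mice.

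The nuclear-encoded subunits of complexes I to V, of which complex II has no mitochondrially encoded subunit, had a median log2 fold change near 0, with single genes between -2.12 and 0.76. Of 84 such genes 82 were tested, of which 54 had a higher and 28 a lower level in HSD17B1TG uterus, with a median log2 fold change of 0.06 and 0 with an adjusted p under 0.05 in edgeR (8 at an unadjusted p under 0.05, against 26.1% of all genes tested). The count of 8 was 15 without WT4, 3 without WT3 or WT5, 4 without WT2, 5 without TG3 or WT1 and 6 or 7 without any other mouse. With library totals without TMM, the scale of the CPM sums below, the median log2 fold change was -0.12. By complex the medians were 0.03 for the 37 genes of complex I, 0.12 for 4 of complex II, 0.09 for 9 of complex III, 0.16 for 14 of complex IV and 0.06 for 18 of complex V. The mitochondrially encoded subunits had 0.79 for complex I (7 genes), 0.78 for complex III (mt-Cytb), 1.09 for complex IV (3 genes) and 1.35 for complex V (2 genes). Both genes of complex V, mt-Co2 and mt-Co3 of complex IV, and mt-Nd3 and mt-Nd4l of complex I lie inside the copied stretch. Their counts are uncertain, and mt-Atp8 rests on 5 to 118 counts per mouse. Summed over the nuclear-encoded subunits, the level was 8442 to 9885 CPM (counts scaled to an equal library total) in HSD17B1TG and 8677 to 11278 CPM in WT mice. The highest mouse was thus 1.34-fold over the lowest. The summed level of the mitochondrial protein genes was 56441, 19059, 24486, 66328 and 73767 CPM in TG1 to TG5 and 25280, 29719, 32351, 32854 and 29572 CPM in WT1 to WT5, with 3.87-fold between the highest and the lowest mouse. The difference between the lists was not tested.

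The nuclear genes with the smallest p among these subunits were Cox6c, with 60.5 ± 6.94 FPKM in HSD17B1TG and 92.9 ± 20.2 in WT mice (SD, n = 5, log2 fold change -0.62, adjusted p = 0.0549 by edgeR), Ndufa11 with 84.4 ± 18.8 and 49.9 ± 15.7 FPKM (0.76, adjusted p = 0.0652), and the testis-type subunit Cox6b2 with 7.38 ± 2.08 and 16.4 ± 9.79 FPKM (-1.16, adjusted p = 0.0928). Cox6c and Cox6b2 belong to complex IV and Ndufa11 to complex I. None of the 3 passed the threshold in edgeR, whereas all 3 had an adjusted p under 0.05 in DESeq2, which called Cox6b2 as lower, as did edgeR without WT4. The lowest log2 fold change, -2.12, was that of Cox4i2, a further subunit of complex IV that was chosen after its values were seen, with 1.16 ± 0.937 FPKM in HSD17B1TG and 5.06 ± 4.33 in WT mice (SD, n = 5, adjusted p = 0.148 by edgeR).

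**Figure D5:**
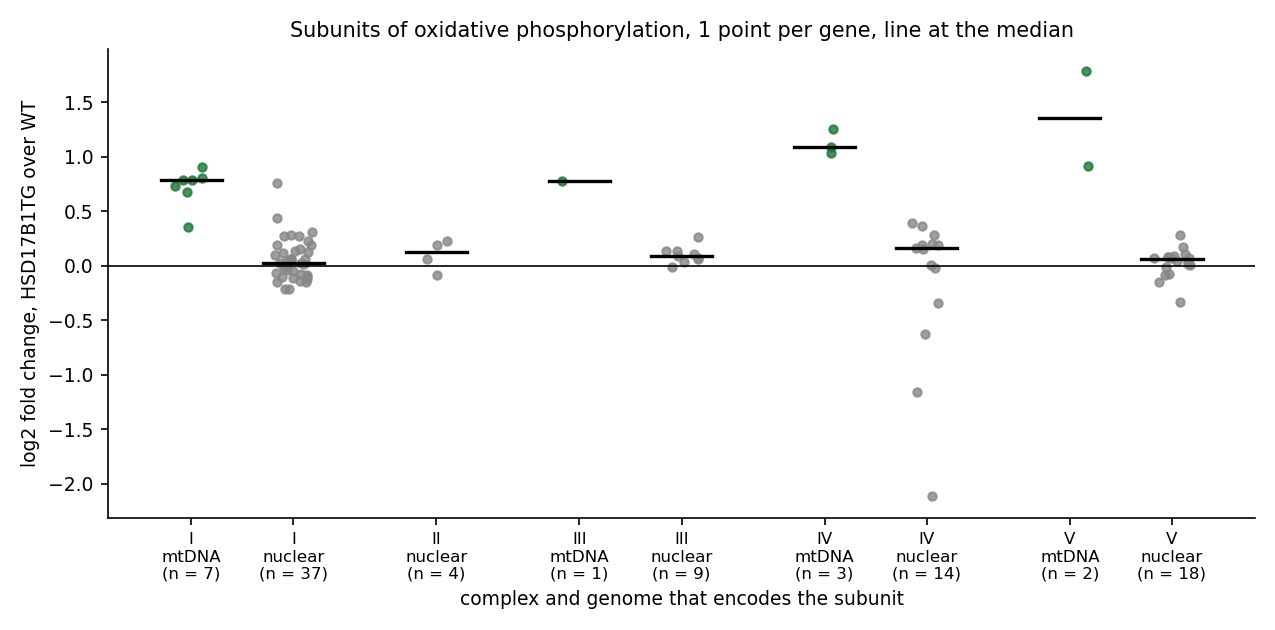
Log2 fold change of HSD17B1TG over WT for each subunit of complexes I to V, encoded by mitochondrial DNA (green) or by nuclear genes (grey), with 1 point per gene and a line at the median. The medians of the mitochondrially encoded subunits lie between 0.78 and 1.35 and those of the nuclear-encoded subunits between 0.03 and 0.16. Among the green points, mt-Co2, mt-Co3, mt-Atp6, mt-Atp8, mt-Nd3 and mt-Nd4l lie inside the copied stretch, where counts are uncertain.

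For the 77 nuclear genes of mitochondrial ribosomal proteins the median log2 fold change was -0.02, with 34 higher, 43 lower and 0 with an adjusted p under 0.05 in edgeR (7 at an unadjusted p under 0.05, against 26.1% of all genes tested) and 1 in DESeq2. The count of 7 was 18 with library totals without TMM, 12 without TG3, and 2 to 4 without TG2, TG4, WT1, WT2 or WT3. Their smallest p-values belonged to Mrpl3 (log2 fold change -0.52, adjusted p = 0.0524), Mrpl24 (0.37, adjusted p = 0.109) and Mrpl9 (0.33, adjusted p = 0.157), all of the large subunit. Of 23 genes that replicate and transcribe mitochondrial DNA, 10 were higher and 13 lower and 0 had an adjusted p under 0.05 in edgeR (2 at an unadjusted p under 0.05, against the same 26.1%, 1 without TG2, TG3, TG5, WT2, WT4 or WT5 and 4 with library totals without TMM), whereas DESeq2 called 1, Mterf2, as lower, as did edgeR without TG1. Tfam, which packs this DNA and starts its transcription, was at 9.36 ± 1.36 FPKM in HSD17B1TG and 9.63 ± 0.590 in WT mice (SD, n = 5, log2 fold change -0.05, adjusted p = 0.839 by edgeR). The mitochondrial RNA polymerase Polrmt was at 5.46 ± 1.1 and 6.21 ± 0.762 FPKM (-0.19, adjusted p = 0.497). Mterf2, a member of the mitochondrial termination factor family, had the smallest p of this list, with 1.64 ± 0.744 and 3.61 ± 1.22 FPKM (-1.15, adjusted p = 0.0802), ahead of Mterf3 (-0.32, adjusted p = 0.171) and Rnaseh1 (0.21, adjusted p = 0.340). Of 34 genes of mitochondrial RNA processing and stability, 15 were higher and 19 lower and 0 had an adjusted p under 0.05 in edgeR (5 at an unadjusted p under 0.05, again against 26.1%) and 1 in DESeq2. The count of 5 was 9 without TG3 or with library totals without TMM, 2 without TG5 or WT1 and 3 without WT2, WT3 or WT5.

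Lrpprc, which binds and stabilizes mitochondrial mRNAs, was at 5.38, 5.10, 6.44, 5.38 and 5.67 FPKM in TG1 to TG5 and at 6.69, 6.93, 6.96, 6.90 and 6.60 FPKM in WT1 to WT5. The groups did not overlap, but the log2 fold change of -0.29 (SE 0.10) had an adjusted p of 0.0904 by edgeR. Hsd17b10, a dehydrogenase of the same family as the transgene that is also part of the mitochondrial RNase P, was at 35.2, 44.2, 44.7, 33.6 and 35.4 FPKM in TG1 to TG5 and at 47.9, 41.4, 62.3, 42.8 and 47.9 FPKM in WT1 to WT5 (log2 fold change -0.33, SE 0.15, adjusted p = 0.18 by edgeR). TG2 and TG3 were above WT2 and WT4. Trub2, a mitochondrial pseudouridine synthase, had a log2 fold change of -0.48 (adjusted p = 0.0853 by edgeR) and Ngrn, which associates with the mitochondrial large rRNA, 0.40 (adjusted p = 0.151).

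Among 17 tested regulators of mitochondrial gene expression and biogenesis 3 were called by edgeR, 2 higher and 1 lower, against 4.24% of all genes tested, and 4 of 17 (23.5%) had an adjusted p under 0.05, against 6.16% of all genes tested. Pparg, a nuclear receptor of lipid metabolism, was at 3.12, 2.86, 2.84, 3.72 and 3.26 FPKM in TG1 to TG5 and at 0.634, 0.624, 0.315, 0.787 and 0.364 FPKM in WT1 to WT5. All HSD17B1TG mice were above all WT mice, with a log2 fold change of 2.53 (SE 0.29, adjusted p = 0.00956 by edgeR). Esrra, the estrogen-related receptor that drives genes of oxidative phosphorylation, was at 27.7, 39.8, 35.7, 30.6 and 51.8 FPKM in TG1 to TG5 and at 18.4, 13.4, 13.4, 22.6 and 12.3 FPKM in WT1 to WT5. Its groups did not overlap and its log2 fold change was 1.21 (SE 0.22, adjusted p = 0.0219 by edgeR). TG5, with the highest mitochondrial share, was also the highest in Esrra. TG2 and TG3, the mice with the lowest share, were 2nd and 3rd in Esrra, ahead of TG4 and TG1. A link between Esrra and the mitochondrial share was not tested. Esrrb had an adjusted p of 0.0440 at a mean of 0.137 FPKM in HSD17B1TG and 0.0215 FPKM in WT mice, under the FPKM threshold. Myc, a transcription factor of cell growth, was at 14.9, 10.98, 14.4, 14.0 and 15.6 FPKM in TG1 to TG5 and at 27.4, 29.7, 53.7, 11.7 and 42.03 FPKM in WT1 to WT5 (log2 fold change -1.25, SE 0.33, adjusted p = 0.0498 by edgeR). The groups overlapped, with WT4 below all HSD17B1TG mice except TG2. This call was kept without WT4 (adjusted p = 0.00455) and was lost when any other mouse was left out (0.0510 to 0.114) and in the 3 fits with limma (0.0777 to 0.0960). Ppargc1a, the coactivator of Esrra, was at 1.37 ± 0.273 and 0.897 ± 0.341 FPKM (0.61, adjusted p = 0.206). The call of Esrra was lost without TG2, TG5, WT2, WT3 or WT5 (adjusted p = 0.0514 to 0.0593), which left 1 call, Pparg, and 2 calls were left without TG1, TG3, TG4 or WT1.

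Whole uterus holds myometrium, stroma, glands and leucocytes, and in such bulk samples fewer cells of a type and less RNA per cell cannot be told apart. The marker lists of cell types therefore stand here beside the mitochondrial values. Smooth muscle markers (10 genes, all higher by log2 fold change with a median of 0.64, 0 at an unadjusted p under 0.05, 0 called) summed to 23855, 7862, 5761, 10834 and 2668 CPM in TG1 to TG5 and to 5754, 2324, 1631, 17775 and 7397 CPM in WT1 to WT5. TG5, with the highest mitochondrial share, had the lowest sum of the HSD17B1TG mice, and TG1, with a high share too, the highest of all. Epithelial markers (8 of 8 higher by log2 fold change with a median of 1.34, 6 at an unadjusted p under 0.05 against 26.1% of all genes tested, 0 called) summed to 1425, 4672, 5361, 3948 and 5785 CPM in TG1 to TG5 and to 2229, 1703, 843, 3797 and 1009 CPM in WT1 to WT5. TG1 was thus high in the mitochondrial share and low in these markers, and TG2 and TG3 were the reverse. TG4 was above every WT mouse in both, and TG5 was the highest in both. Stroma markers (7 of 8 lower, 4 called as lower, namely Hand2, Pdgfra, Hoxa11 and Col3a1, against 2.08% of all genes tested) summed to 3076 to 14110 CPM in HSD17B1TG and 14581 to 18222 CPM in WT mice without overlap. Of 6 leucocyte markers 5 had a lower level by the log2 fold change, with a median of -0.72 over the 6, and 4 had an unadjusted p under 0.05 (26.1% of all genes tested), namely Cd52 (log2 fold change -1.37), Ptprc (-1.08), Coro1a (-0.90) and Laptm5 (1.28), of which Laptm5 alone had an adjusted p under 0.05 and was called, as higher (2.16% of all genes tested were). Neutrophil markers (2 tested, S100a9 at a log2 fold change of 3.20 with an adjusted p of 0.0967 by edgeR), erythroid markers (4 of 4 lower) and skeletal muscle markers (3 of 3 lower) were not called, and adipocyte markers, not tested, reached 47.9 CPM in TG4 and 13.9 CPM in WT2 and were at 0 in TG3, WT3 and WT5. The nuclear genes with the 10 highest counts held 4.26% to 9.70% of all counts in HSD17B1TG and 2.68% to 3.94% in WT mice, most in TG2. Without these genes the difference in mitochondrial share between the group means was 2.05 percentage points, against 1.85 with them. Neither difference was tested.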

How the data were processed

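Uterus RNA of 10 mice, 5 HSD17B1TG and 5 WT, was measured by RNA-seq with 1 library per mouse, and the genotype in the labels set the group of each mouse. Per the labels and the paper's methods, the authors made mRNA libraries, read them as pairs of 150 bases on a NovaSeq6000 and mapped them with HISAT2 2.0.5 to mouse GRCm38 (Ensembl 94). The authors deposited a raw count for each gene and mouse. The deposited FPKM scale these counts by gene length and by the DESeq2 size factor, and the deposited signal, the count divided by that factor, was read only to check the factors. Not given in the sources used here are the counting program, its strand setting and how it treated reads that match several places. The log2 fold change, p-value and adjusted p-value columns of the deposited tables, the shorter gene tables and the GO and KEGG tables hold the authors' own comparison and were not used.

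Members were the genes whose name begins with mt-. These genes, and the lists of nuclear genes and cell type markers, which were written from general knowledge, were chosen with earlier results of these data known. Raw counts were filtered with filterByExpr, scaled with TMM and tested by the quasi-likelihood test of edgeR 4.0.16 (R 4.3.3) on all 10 mice with Benjamini-Hochberg adjustment, after a check on simulated counts. Genes were called with an adjusted p under 0.05, more than a 2-fold change and, in at least 1 group, a mean above 1 FPKM. All mitochondrial protein and rRNA genes are named, with the 3 tRNA genes of highest and of lowest mean count. From each nuclear list the genes with an adjusted p under 0.05, or else the 3 with the smallest p, are named, and in any case Hsd17b10, Tfam, Polrmt, Lrpprc, Ppargc1a and Esrra. Sequences came from the GENCODE M21 transcripts, in which all 31 mitochondrial genes and 28478 of the 29268 genes of the table had the same coordinates as in the table, and copies were found by BLAST and pairwise alignment.

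Total counts were 14817228 to 23271988, and a count of 3, taken as the limit of detection for counting error, was 0.129 to 0.202 CPM. Alternatives were DESeq2 1.42.0, limma 3.58.1 with voom and on log2(FPKM + 1) and log2(FPKM + 0.1), DESeq2 size factors, library totals alone, normalization without mitochondrial genes, other filters, each mouse left out in turn and, added after seeing the data, gene and copy summed. No batch term was used, as none is named in the labels.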

Additional observations from a re-analysis of the deposited data

Results flagged for a closer look

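In 58 groups of 5 mice, the FPKM of 23 named genes in each genotype and further values per mouse, the distance of the highest or the lowest mouse from the nearest other mouse was compared with the range of the group, and 2 groups had a mouse that stood apart by Dixon's criterion. About 1 in 20 groups is expected to do so by chance alone. mt-Nd4l was at 147.5 FPKM in WT2, against 10.8 to 30.4 FPKM in the other WT mice. mt-Atp8 was at 11.2 FPKM in WT1, against 1.52 to 4.27 FPKM in the other WT mice. Both genes lie in the stretch copied to chromosome 1. WT2 also had the highest ratio of mt-Nd4l to its copy Gm10222 (11.1) and of mt-Atp6 to Gm10925 (2.22), while the copy Gm10222 itself had 75 counts in WT2 and 95 to 152 in the other WT mice.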

How the results depend on the processing

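DESeq2 called 4 mitochondrial genes, 1 subunit of oxidative phosphorylation encoded in the nucleus and 1 gene of replication and transcription, where edgeR called 0 of each. With each mouse left out in turn, 0 to 2 mitochondrial genes, 0 to 1 nuclear subunits, 0 to 1 genes of replication and transcription and 1 to 3 regulators were called. The 3 limma fits called 2 regulators each, with the call of Myc lost. The nuclear subunit was called without WT4 and the replication gene without TG1. The difference in mitochondrial share was 1.19 to 2.59 percentage points. The log2 ratio of mt-Rnr2 to mt-Rnr1 differed by -0.50 to -0.27, that of mt-Nd6 to mt-Nd5 by -0.17 to -0.06, and that of mt-Nd5 to mt-Nd1 by -0.047 to 0.10, turning negative without TG2 (-0.030), TG3 (-0.0056) or WT2 (-0.047). For single genes the log2 fold change ranged from -0.35 to 1.47 for mt-Nd4l, with -0.35 without TG4. It ranged from -0.61 to 0.13 for mt-Tc, with 0.13, 0.04 and 0.09 without TG2, TG3 and WT3, and from -0.62 to 0.10 for mt-Tn, with 0.10, 0.04 and 0.10 without the same mice. The cause of these changes was not tested. The median log2 fold change of the mitochondrial genes stayed between 0.50 and 1.01 in all settings run, with 0.78 when the counts of gene and copy were summed. Library totals without TMM moved the median of all genes to -0.17 and that of the mitochondrial genes to 0.58. All genes called higher and lower were 367 and 354 in edgeR, 906 and 666 in DESeq2, and 38 to 888 and 27 to 666 with a mouse left out. No paired analysis was possible because the labels tie no HSD17B1TG mouse to a WT mouse.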
